A study of Homo sapiens with 6 samples.

Results

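The kynurenine pathway breaks down tryptophan, and its genes were followed here in HT29 cells, an established human colorectal adenocarcinoma line, that were deprived of histidine or of tryptophan. The set was fixed by name as 10 enzyme genes, TDO2, IDO1, IDO2, AFMID, KYNU, KYAT1, KYAT3, KMO, HAAO and QPRT, and each was found among the 60676 genes listed in the deposited tables through its Ensembl identifier. RNA-seq covered 3 groups of HT29 cells with 2 libraries each, namely untreated cells, histidine-depleted cells and tryptophan-depleted cells, all at 48 h. Tryptophan depletion served in the study as the comparison for what any amino acid shortage does to the transcriptome. Medium without histidine was made from an RPMI base, medium without tryptophan from a DMEM F-12 base, each with dialyzed serum, and the sources used here do not name the medium of the untreated RNA-seq samples. The lack of an amino acid and any change of base medium or serum therefore cannot be told apart in a comparison with untreated cells. Nor can the missing amino acid and the base medium be told apart in the direct comparison of the depletions. No label says that the 2 libraries of a group came from separate cultures, so the p-values measure only the spread between these libraries.

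In the pathway, a dioxygenase (TDO2, IDO1 or IDO2) opens the indole ring of tryptophan and AFMID removes the formyl group, which gives kynurenine. Kynurenine is then cut by KYNU, transaminated to kynurenic acid by KYAT1 or KYAT3, or hydroxylated by KMO, and the KMO branch leads through KYNU, HAAO and QPRT to NAD. TDO2 is known as the liver enzyme and IDO1 as the enzyme that interferon-gamma induces in immune and tumor cells, where tryptophan loss restrains T cells.

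The 6 libraries held 46390819 to 64388876 reads. All 8 colon epithelium markers (EPCAM, CDH1, KRT8, KRT18, KRT20, VIL1, CDX2 and LGALS4) had at least 10 reads in every library. Under 10 reads in every library were 4 of 7 hepatocyte, 3 of 7 leukocyte and myeloid, and 2 of 5 fibroblast and endothelium markers, among them ALB with 0 to 5 reads, PTPRC with 0 to 2 and COL1A2 with 0. Other markers of these lists had reads, with SERPINA1 at 2470 to 12135, CD14 at 56 to 401, COL1A1 at 30 to 70, ITGAM at 4 to 114 and PECAM1 at 9 to 44. A difference in a bulk library is a difference in the share of reads, and fewer cells with a transcript cannot be told apart from less of it per cell.

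The pathway was present in part. Reads were found for AFMID, KYNU, KYAT3 and QPRT in every library, at 217 reads or more. The counts of the entry enzymes and of KYAT1, KMO and HAAO were at or near 0 (plot of reads by library). Exons of another gene on the same strand cover 84.6% of the canonical KYAT1 transcript, so its count may not give its level. After histidine depletion AFMID rose and KYAT3 and QPRT fell, while the difference of KYNU was 0.01 on the log2 scale. After tryptophan depletion KYNU rose 3.04-fold, and AFMID and QPRT fell by 0.35 each on the log2 scale.

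The sequences upstream of the start sites are shown for the 3 genes that had an upstream stretch free of annotated exons and that changed in at least one comparison. They come from RefSeq (GRCh38.p14), were read on the strand of the gene, and are cut from the 250 bases before the start site to the part that no exon of any transcript in gencode 44 covers. Capitals mark matches on either strand to 9 short motifs that were chosen after the values had been seen.
KYNU, chr2:142877414-142877656, plus strand, ends 8 bases before the start site: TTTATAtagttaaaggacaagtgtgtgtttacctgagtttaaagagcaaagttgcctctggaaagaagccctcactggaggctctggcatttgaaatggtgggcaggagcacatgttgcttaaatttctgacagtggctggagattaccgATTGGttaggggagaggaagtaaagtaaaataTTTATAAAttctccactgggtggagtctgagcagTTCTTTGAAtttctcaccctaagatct
AFMID, chr17:78187234-78187357, plus strand, ends 5 bases before the start site: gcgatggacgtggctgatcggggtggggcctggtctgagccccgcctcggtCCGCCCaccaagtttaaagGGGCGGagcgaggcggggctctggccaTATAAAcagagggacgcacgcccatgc
QPRT, chr16:29678930-29679007, plus strand, ends 173 bases before the start site: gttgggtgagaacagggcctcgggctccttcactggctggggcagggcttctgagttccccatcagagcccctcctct

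The motifs searched were the ATF4 C/EBP-ATF element (TGATGNAA), the cyclic AMP response element (TGACGTCA), the AP-1 site (TGANTCA), the E-box (CACGTG), the gamma-activated site (TTCNNNGAA), the antioxidant response element core (TGACNNNGC), the GC box (GGGCGG), the CCAAT box (CCAAT) and the TATA box (TATAAA). In the 250 bases before the KYNU start site, a gamma-activated site match begins 34 bases upstream, a CCAAT match 100 bases upstream, and TATA matches 250, 68 and 66 bases upstream, the last pair overlapping on opposite strands. Among 34943 windows of the same length, 6.56% hold the gamma-activated site letters, 32.0% CCAAT and 10.8% the TATA letters. The AFMID window has a TATA match that begins 31 bases upstream and GC box matches at 58, 77 and 191 bases, and 42.5% of all windows hold a GC box match. The outer part of that window, also with a match to the antioxidant response element core at 218 and to CCAAT at 237 bases, lies in exons of TK1, whose start site is 310 bases away on the other strand. For QPRT there are 2 windows, and the one used lies before the start site of the canonical transcript (29679180), inside the annotated gene. That window has no match to the 9 motifs, and the other was not read. The KYAT3 window has 5 GC box matches, 2 of which overlap, and a CCAAT match, and all of it lies in exons of KYAT3 or of its neighbour RBMXL1. The ATF4 element letters are in 3.15% of all windows and in none of the 4 windows of AFMID, KYNU, KYAT3 and QPRT. A match describes the letters only. GC content was 42.4% in the KYNU window, 70.4% in that of AFMID, 67.6% in that of KYAT3 and 66.4% in that of QPRT, against a median of 58.0% over all windows.

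**Figure D1:**
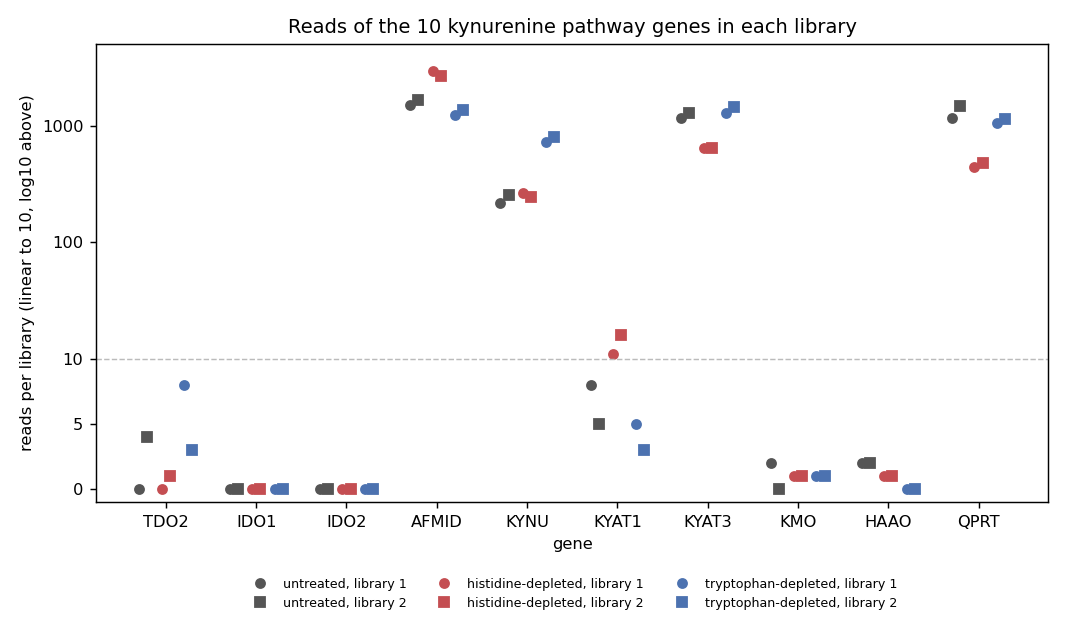
Reads of each of the 10 genes in each of the 6 libraries (vertical axis in reads, linear up to 10 and logarithmic above, with a dashed line at 10; circles are library 1 and squares library 2 of a group). AFMID, KYNU, KYAT3 and QPRT have between 217 and 2931 reads per library, KYAT1 has 3 to 16, and TDO2, IDO1, IDO2, KMO and HAAO have 8 or fewer.

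The dioxygenases that start the pathway were close to absent. IDO1 and IDO2 had 0 reads in each of the 6 libraries, that is 0 of 331371092 reads, which allows a level of up to 0.00905 RPM (3 reads of this total scaled to library size, counting error only). For TDO2 the counts were 0 and 4 reads in untreated cells, 0 and 1 without histidine and 8 and 3 without tryptophan. The untreated TDO2 libraries overlapped those of each depletion, while both tryptophan-depleted libraries were above both histidine-depleted ones. With 16 reads in all TDO2 was under the count minimum and was not tested.

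AFMID, the formamidase that follows the dioxygenases, lies on chromosome 17 (78187358 to 78207702, plus strand, GRCh38). Its normalized counts, here scaled over all 6 libraries together, were 1640 and 1645 in untreated cells, 2648 and 2728 in histidine-depleted cells, and 1324 and 1258 in tryptophan-depleted cells. Both histidine-depleted libraries were above, and both tryptophan-depleted libraries below, the untreated ones, with no overlap. Within the histidine table AFMID rose by 0.72 on the log2 scale (SE 0.0548, limma adjusted p = 1.47e-11), a 1.65-fold difference. Within the tryptophan table it fell by 0.35 (SE 0.0574, limma adjusted p = 1.80e-08). The direct difference between the depletions was 1.06 (95% confidence interval 0.95 to 1.16, limma adjusted p = 1.58e-12). TK1, the thymidine kinase of dividing cells whose start site faces that of AFMID, had 9398 and 10186 normalized counts in untreated cells, 4316 and 4821 without histidine and 761 and 787 without tryptophan. TK1 thus fell in both depletions, with log2 fold changes of -1.09 without histidine and -3.67 without tryptophan (limma adjusted p = 8.18e-15 and 8.31e-108), while AFMID rose in one and fell in the other.

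KYNU, the kynureninase, lies on chromosome 2 (142877657 to 143055833, plus strand) and cuts kynurenine to anthranilic acid and 3-hydroxykynurenine to the substrate of HAAO. The normalized counts were 237 and 256 in untreated cells, 241 and 250 in histidine-depleted cells, and 769 and 738 in tryptophan-depleted cells. The histidine-depleted libraries lay inside the untreated range, and the tryptophan-depleted libraries lay far above both other groups. KYNU rose 3.04-fold after tryptophan depletion (log2 fold change 1.60, SE 0.0875, limma adjusted p = 1.51e-37), more than 95.8% of the genes tested. Without histidine the log2 difference was 0.01 with a 95% confidence interval of -0.22 to 0.23 (limma adjusted p = 0.963), and its sign turned under other settings. The depletions differed directly by -1.61 for histidine minus tryptophan (SE 0.0873, limma adjusted p = 1.42e-11). Since KYNU is also known from myeloid cells, the list of 7 leukocyte and myeloid markers was read beside it, and its summed level was 3.75 to 4.30 RPM (reads scaled to library size) in untreated libraries, 3.36 to 3.47 without histidine and 7.18 to 7.27 without tryptophan. CD14 had 95 and 120 reads in untreated, 56 and 62 in histidine-depleted and 356 and 401 in tryptophan-depleted libraries, and ITGAM had 60 and 77, 114 and 95, and 4 and 12. Of the 7 markers 3 were under 10 reads in every library, and the defining markers PTPRC and CD68 stayed between 0 and 3 reads.

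The aminotransferases make kynurenic acid from kynurenine. KYAT3, on chromosome 1 (88935773 to 88992953, minus strand), had normalized counts of 1260 and 1271 in untreated cells, 585 and 657 in histidine-depleted cells, and 1373 and 1320 in tryptophan-depleted cells. Both histidine-depleted libraries were well below all others. KYAT3 fell by 1.02 on the log2 scale without histidine (2.03-fold, SE 0.0716, limma adjusted p = 3.16e-12). Without tryptophan the difference was 0.08 (95% confidence interval -0.03 to 0.20, limma adjusted p = 0.210), so changes beyond 0.20 in either direction lay outside the interval. The depletions differed by -1.12 (SE 0.0633, limma adjusted p = 2.66e-11). RBMXL1, an RNA-binding protein gene, overlaps KYAT3 on the same strand and shares 16.3% of its exonic bases. RBMXL1 had 2197 and 2246 normalized counts in untreated, 2292 and 2243 in histidine-depleted and 1278 and 1352 in tryptophan-depleted libraries. The order of the groups thus differed between RBMXL1, low without tryptophan, and KYAT3, low without histidine.

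KYAT1, the other aminotransferase, on chromosome 9, had few counted reads, with 8 and 5 in untreated cells, 11 and 16 without histidine and 5 and 3 without tryptophan. Whether the untreated and histidine-depleted groups overlapped depended on the scaling. By normalized counts, 8.74 and 4.97 in untreated libraries lay below 9.94 and 16.3 in histidine-depleted libraries, whereas by RPM histidine-depleted library 1 (0.171) lay just below untreated library 1 (0.172). Its mean lay just under the minimum of 10 normalized counts in the histidine table, so it was not tested there. The protein-coding model ENSG00000286112 on the same strand shares 57.3% of the exonic bases of KYAT1 and 84.6% of its canonical transcript. This model had 3 and 2, 8 and 9, and 1 and 1 reads in the same groups. The counts of KYAT1 are therefore uncertain, and a low level of it cannot be read from them. How reads in shared exons were counted is not given in the sources used here.

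KMO, which hydroxylates kynurenine, had 2 and 0 reads in untreated cells, and 1 read in each of the 4 depleted libraries. Exons of OPN3 on the opposite strand cover 33.7% of the canonical KMO transcript. HAAO, the dioxygenase that opens 3-hydroxyanthranilic acid, had 2 and 2 reads in untreated, 1 and 1 in histidine-depleted and 0 and 0 in tryptophan-depleted libraries. All HAAO values were at or under the floor of 3 reads, and no fold is given.

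QPRT, the quinolinate phosphoribosyltransferase that leads the pathway into NAD, lies on chromosome 16 (29663279 to 29698699, plus strand). Normalized counts of 1281 and 1479 in untreated cells stood against 400 and 484 in histidine-depleted and 1122 and 1049 in tryptophan-depleted cells. The 3 groups did not overlap, and the histidine-depleted libraries were the lowest. QPRT fell 3.10-fold without histidine (log2 fold change -1.63, SE 0.0865, limma adjusted p = 1.28e-14) and by 0.35 on the log2 scale without tryptophan (SE 0.0616, limma adjusted p = 1.80e-07). The direct difference was -1.30 (95% confidence interval -1.48 to -1.12, limma adjusted p = 2.12e-10). The summed level of 7 hepatocyte markers moved in the same order, with 232 to 234 RPM in untreated, 38.9 to 49.2 in histidine-depleted and 170 to 174 in tryptophan-depleted libraries, and SERPINA1 made up nearly all of it. Of the 7 markers 4, namely ALB, APOA1, TAT and CYP3A4, had at most 8 reads in any library.

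**Figure D2:**
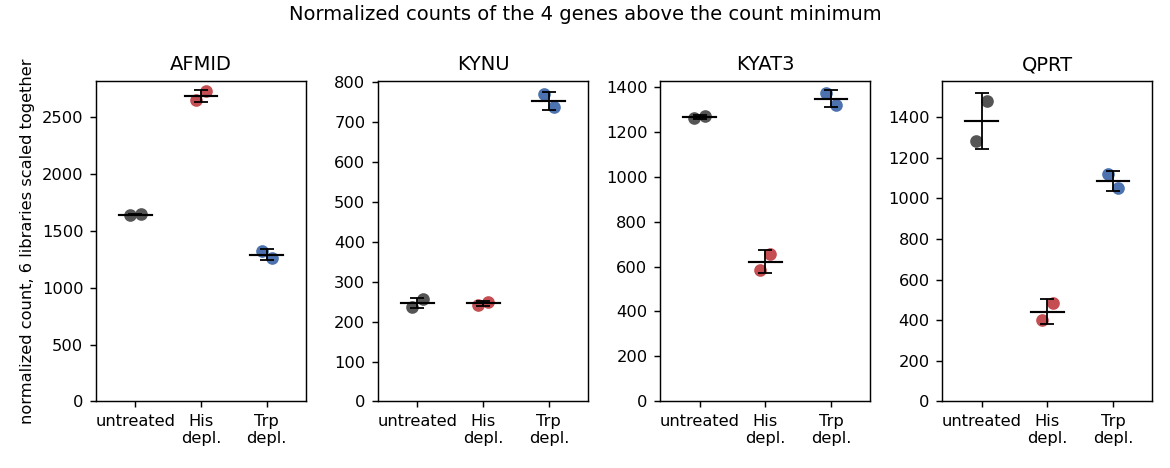
Normalized counts of AFMID, KYNU, KYAT3 and QPRT in each library, all 6 libraries scaled together (points are libraries, long bars the group means and whiskers the SD, n = 2 per group; each axis starts at 0). KYNU stands at 769 and 738 in the tryptophan-depleted libraries against 237 to 256 elsewhere, and QPRT and KYAT3 are lowest in the histidine-depleted libraries.

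The 4 genes above the minimum gave 3 calls after histidine depletion (1 higher and 2 lower of 10 genes, 6 not tested), where 77.3% of all genes tested passed, 39.1% as higher and 38.2% as lower. They gave 3 calls after tryptophan depletion (1 higher and 2 lower), where 70.8% of all genes passed, 36.1% as higher and 34.8% as lower. Between the depletions all 4 were called (1 higher and 3 lower with histidine than with tryptophan depletion), against 76.7% of all genes, 38.7% as higher and 38.0% as lower. These shares are near the background and say nothing particular about the pathway. The median log2 fold change of the 4 genes was -0.51 after histidine depletion, -0.13 after tryptophan depletion and -1.21 for histidine against tryptophan depletion, beside medians over all genes tested of 0.01 in each comparison. The comparisons with untreated cells share the same untreated libraries. A limit of 1 on the size of the log2 fold change, added to the threshold, left KYAT3 and QPRT after histidine depletion, KYNU alone after tryptophan depletion, and all 4 genes between the depletions.

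**Figure D3:**
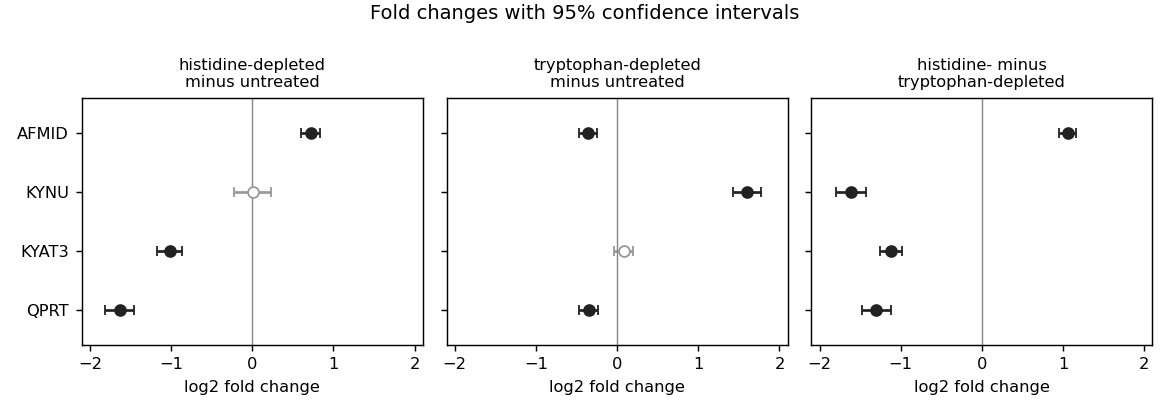
Log2 fold changes of AFMID, KYNU, KYAT3 and QPRT in the 3 comparisons with 95% confidence intervals from limma (filled points passed an adjusted p of 0.05, open points did not). The intervals of KYNU without histidine (-0.22 to 0.23) and of KYAT3 without tryptophan (-0.03 to 0.20) include 0, and all 4 intervals between the depletions exclude it.

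Levels of different genes were compared per length, as RPKM, that is reads divided by the length of annotated exons in kilobases and by the size of the library. In untreated cells KYAT3 stood highest at 11.3 and 11.1, followed by AFMID at 8.07 and 7.84, QPRT at 6.87 and 7.68, and KYNU at 0.268 and 0.280. AFMID and QPRT lay about as close as the QPRT libraries did to each other, and the other neighbours in this order were further apart than their libraries. In histidine-depleted cells the order became AFMID at 11.4 and 11.6, KYAT3 at 4.58 and 5.11, QPRT at 1.87 and 2.25 and KYNU at 0.238 and 0.245. In tryptophan-depleted cells it was KYAT3 at 11.5 and 11.03, AFMID at 6.08 and 5.76, QPRT at 5.61 and 5.23 and KYNU at 0.812 and 0.776. Per kilobase of the canonical transcript, a length chosen after the data had been seen, AFMID came first in untreated cells (19.2 and 18.6) before KYAT3 (13.7 and 13.4), so the order of these enzymes depends on the length used. KYNU came last by either length in each group, and its canonical transcript has 15151 bases against 1686 for AFMID, 1815 for KYAT3 and 2200 for QPRT.

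The coding sequences themselves differ in how often they call for the depleted amino acids. KYNU has 5 tryptophan and 19 histidine codons among 465, and its 4.09 histidine codons per 100 exceed those of 90.9% of 13150 tested protein-coding genes. KYAT3 has 10 tryptophan and 6 histidine codons among 454, with 2.20 tryptophan codons per 100, above 87.8% of genes, and 1.32 histidine codons per 100, above 12.4%. AFMID has 6 and 10 such codons among 303, and QPRT 4 and 7 among 297. The medians over these genes are 1.08 tryptophan and 2.45 histidine codons per 100.

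Genes with the pattern most like that of QPRT, KYNU and KYAT3 were sought over the 6 libraries among 13912 genes whose mean reached 50 normalized counts, by the Euclidean distance of centred log2 values. Nearest to QPRT were DNAJC19 (distance 0.0964), SLC25A6 (0.117) and ATG4C (0.128). SULT2B1 (0.103), IQSEC2 (0.119) and PDGFA (0.119) were nearest to KYNU, and SULT2B1 had means of 1448, 1436 and 4184 in untreated, histidine-depleted and tryptophan-depleted cells. IFT140 (0.0526), BBS2 (0.0664) and CACNA1D (0.0873) were nearest to KYAT3, with IFT140 at 1478, 735 and 1547. These distances describe 6 libraries only.

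Genes around the pathway were read from 6 lists. Of 11 further genes of NAD metabolism, 8 were tested. The list holds genes that make or use NAD and also NNMT, which acts on nicotinamide, so its counts and medians mix these roles. After histidine depletion 2 rose and 5 fell, with a list median of -0.51. NMNAT1, which joins the nucleotide to adenylate, rose from 503 ± 13.2 to 1407 ± 2.49 normalized counts (mean ± SD, n = 2, log2 fold change 1.48, SE 0.0690, limma adjusted p = 1.06e-15). NNMT, which methylates nicotinamide, fell from 858 ± 62.0 to 346 ± 10.4 (log2 fold change -1.31, SE 0.0829, limma adjusted p = 4.34e-13), and the mitochondrial NAD kinase NADK2 fell from 2226 ± 10.4 to 988 ± 18.4 (-1.17, SE 0.0589, limma adjusted p = 4.61e-15). After tryptophan depletion 5 rose and 0 fell, with 3 not called and a median of 0.23. NAMPT, which salvages nicotinamide, rose from 5336 ± 267 to 14886 ± 374 (log2 fold change 1.48, SE 0.0469, limma adjusted p = 3.91e-63). The riboside kinase NMRK1 rose from 395 ± 24.8 to 850 ± 20.7 (1.10, SE 0.0774, limma adjusted p = 4.94e-28), and NMNAT1 rose by 0.64 (SE 0.0749, limma adjusted p = 8.24e-14). Without histidine NAMPT rose by 0.91 (SE 0.0516, limma adjusted p = 4.79e-14) and NMRK1 fell by 0.28 (SE 0.0966, limma adjusted p = 0.0111). That NMRK1 call was lost with quantile normalization (-0.06), with DESeq2 (-0.29), without untreated replicate 1 (-0.22) and without histidine-depleted replicate 2 (-0.22). Directly compared, 7 of the 8 were lower with histidine than with tryptophan depletion and 1 was higher, beside 38.0% and 38.7% of all genes tested.

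Of 7 genes for other reactions on kynurenine, for the glutarate branch and, with IL4I1, for the oxidation of aromatic amino acids, 6 were tested. After histidine depletion 2 rose and 4 fell, with a median of -0.81. IL4I1, an oxidase of aromatic amino acids, rose from 6.16 ± 1.07 to 64.1 ± 9.004 (log2 fold change 3.19, SE 0.326, limma adjusted p = 3.52e-09). ALDH8A1 of the glutarate branch rose from 14.6 ± 5.32 to 131 ± 4.30 (3.12, SE 0.254, limma adjusted p = 5.27e-11). AADAT, a further kynurenine aminotransferase, fell from 267 ± 9.75 to 53.8 ± 8.40 (-2.30, SE 0.156, limma adjusted p = 1.67e-12). Without tryptophan 2 rose and 3 fell, with a median of -0.08, and AADAT fell by 1.34 (SE 0.132, limma adjusted p = 1.19e-17). GCDH, the glutaryl-CoA dehydrogenase, fell from 943 ± 44.4 to 359 ± 9.40 (-1.39, SE 0.0771, limma adjusted p = 6.65e-37), and GOT2 fell by 0.41 (SE 0.0466, limma adjusted p = 2.04e-14).

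In the branch to serotonin and tryptamine, 5 of 9 genes were tested. All 5 fell after histidine depletion, with a median of -0.99, and after tryptophan depletion 1 rose and 2 fell, with a median of -0.53. DDC, the aromatic amino acid decarboxylase, fell from 1055 ± 13.7 to 218 ± 14.2 without histidine (log2 fold change -2.27, SE 0.0857, limma adjusted p = 1.76e-17). Without tryptophan it fell from 1046 ± 10.8 to 378 ± 14.6 (-1.47, SE 0.0747, limma adjusted p = 1.81e-40). ALDH2 fell by 1.67 without histidine (SE 0.0554, limma adjusted p = 1.58e-18) and by 0.53 without tryptophan (SE 0.0474, limma adjusted p = 1.54e-20). The amine oxidase MAOB fell by 0.99 without histidine (SE 0.0945, limma adjusted p = 9.76e-10). MAOA rose from 2360 ± 84.1 to 5100 ± 69.3 without tryptophan (1.11, SE 0.0487, limma adjusted p = 2.99e-47) and fell by 0.37 without histidine (SE 0.0564, limma adjusted p = 2.71e-06).

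For tryptophan uptake and charging, 8 of 9 genes were tested, and in either depletion 4 rose and 3 fell, with medians of 0.02 without histidine and -0.13 without tryptophan. WARS1, the cytosolic tryptophanyl-tRNA synthetase, rose from 10384 ± 689 to 31014 ± 662 without tryptophan (log2 fold change 1.58, SE 0.0491, limma adjusted p = 4.35e-64), and the mitochondrial WARS2 fell by 0.76 (SE 0.0595, limma adjusted p = 1.66e-24). Both went the other way without histidine, where WARS1 fell by 0.62 (SE 0.0548, limma adjusted p = 2.57e-10) and WARS2 rose by 0.20 (SE 0.0572, limma adjusted p = 0.00284, but 0.0528 without histidine-depleted replicate 1). WARS1 was lower with histidine than with tryptophan depletion (log2 difference -2.21, SE 0.0477, limma adjusted p = 9.07e-17). SLC3A2, the heavy chain of the large neutral amino acid transporter, rose by 1.02 without histidine (SE 0.0541, limma adjusted p = 1.22e-14) and by 1.08 without tryptophan (SE 0.0520, limma adjusted p = 3.74e-43). SLC7A5, named after its values had been seen, fell by 0.16 without histidine (SE 0.0599, limma adjusted p = 0.0215). Without tryptophan SLC7A5 rose by 0.66 (SE 0.0577, limma adjusted p = 7.25e-21). Among the other carriers, SLC7A8 rose by 0.92 (SE 0.229, limma adjusted p = 8.46e-04) and SLC36A4 by 0.77 (SE 0.0832, limma adjusted p = 8.61e-09) without histidine. Without tryptophan SLC7A8 fell instead, from 35.7 ± 4.87 to 16.1 ± 3.69 (-1.11, SE 0.319, limma adjusted p = 0.00119), and SLC36A4 rose by 0.40 (SE 0.0874, limma adjusted p = 1.83e-05). SLC16A10, also named after its values had been seen, fell from 32.5 ± 0.112 to 9.93 ± 2.58 without histidine (-1.64, SE 0.346, limma adjusted p = 1.55e-04). Without tryptophan SLC16A10 fell by 1.58 (SE 0.357, limma adjusted p = 4.19e-05).

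Interferon-gamma signalling, which is known to switch on IDO1, was read from 14 genes, of which 12 were tested in the histidine table and 11 in the tryptophan table. Without histidine 5 rose and 2 fell (median 0.16), and without tryptophan 8 rose and 2 fell (median 0.46), while IDO1 stayed at 0 reads. GBP1, an interferon-induced GTPase, rose from 68.5 ± 8.76 to 2376 ± 6.90 without histidine (log2 fold change 5.10, SE 0.0967, limma adjusted p = 5.32e-23). Without tryptophan it rose from 67.9 ± 8.86 to 210 ± 50.1 (1.60, SE 0.158, limma adjusted p = 9.44e-18). The transcription factor IRF1 rose from 1355 ± 70.5 to 5060 ± 0.873 without histidine (1.90, SE 0.0548, limma adjusted p = 1.11e-19), where BIN1 fell by 0.91 (SE 0.0571, limma adjusted p = 3.42e-13). Without tryptophan IRF1 rose by 0.46 (SE 0.0562, limma adjusted p = 4.25e-13) and BIN1 rose by 0.28 (SE 0.0475, limma adjusted p = 8.36e-08). The kinase JAK2 rose from 347 ± 15.8 to 934 ± 11.03 without tryptophan (1.43, SE 0.0777, limma adjusted p = 9.95e-38). The chemokine CXCL11 fell from 50.8 ± 12.6 to 12.3 ± 4.66 there (-1.99, SE 0.318, limma adjusted p = 1.33e-08).

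The aryl hydrocarbon receptor AHR, which kynurenine can bind, its dimer partner ARNT and the known targets AHRR, CYP1A1, CYP1B1 and TIPARP were all tested (6 of 6). Without histidine 4 rose and 1 fell, with a median of 0.80, and without tryptophan 5 rose and 1 fell, with a median of 1.06. The gene that fell without tryptophan was ARNT, named after its values had been seen (log2 fold change -0.24, SE 0.0501, limma adjusted p = 1.37e-05), which was not called without histidine (-0.09, limma adjusted p = 0.143). Without untreated replicate 1 the ARNT difference after histidine depletion was called (-0.12, limma adjusted p = 0.0356), as it was with edgeR (-0.10, adjusted p = 0.0375). CYP1A1, a xenobiotic oxidase and classical target, rose from 5.22 ± 1.79 to 71.2 ± 10.5 without histidine (log2 fold change 3.56, SE 0.339, limma adjusted p = 9.33e-10). Without tryptophan it rose from 5.18 ± 1.79 to 72.01 ± 12.8 (3.58, SE 0.347, limma adjusted p = 3.38e-18). CYP1B1 rose from 298 ± 23.6 to 2294 ± 123 without tryptophan (2.94, SE 0.0686, limma adjusted p = 3.01e-79), and it was lower with histidine than with tryptophan depletion (log2 difference -3.32, SE 0.0805, limma adjusted p = 3.59e-16). TIPARP rose by 1.17 without histidine (SE 0.0537, limma adjusted p = 7.66e-16) and by 0.84 without tryptophan (SE 0.0483, limma adjusted p = 2.85e-35). Without histidine CYP1B1 fell by 0.37 (SE 0.110, limma adjusted p = 0.00433), a call lost with quantile normalization (-0.18), without untreated replicate 2 (-0.28) and without histidine-depleted replicate 2 (-0.30). AHR itself rose by 0.60 without histidine (SE 0.0550, limma adjusted p = 5.15e-10) and by 0.59 without tryptophan (SE 0.0517, limma adjusted p = 5.96e-21), and the direct difference of -0.01 (SE 0.0486) did not pass (limma adjusted p = 0.856). The shares called in these lists are to be read beside the 77.3% and 70.8% of all genes that passed, and their medians beside 0.01 over all genes.

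**Figure D4:**
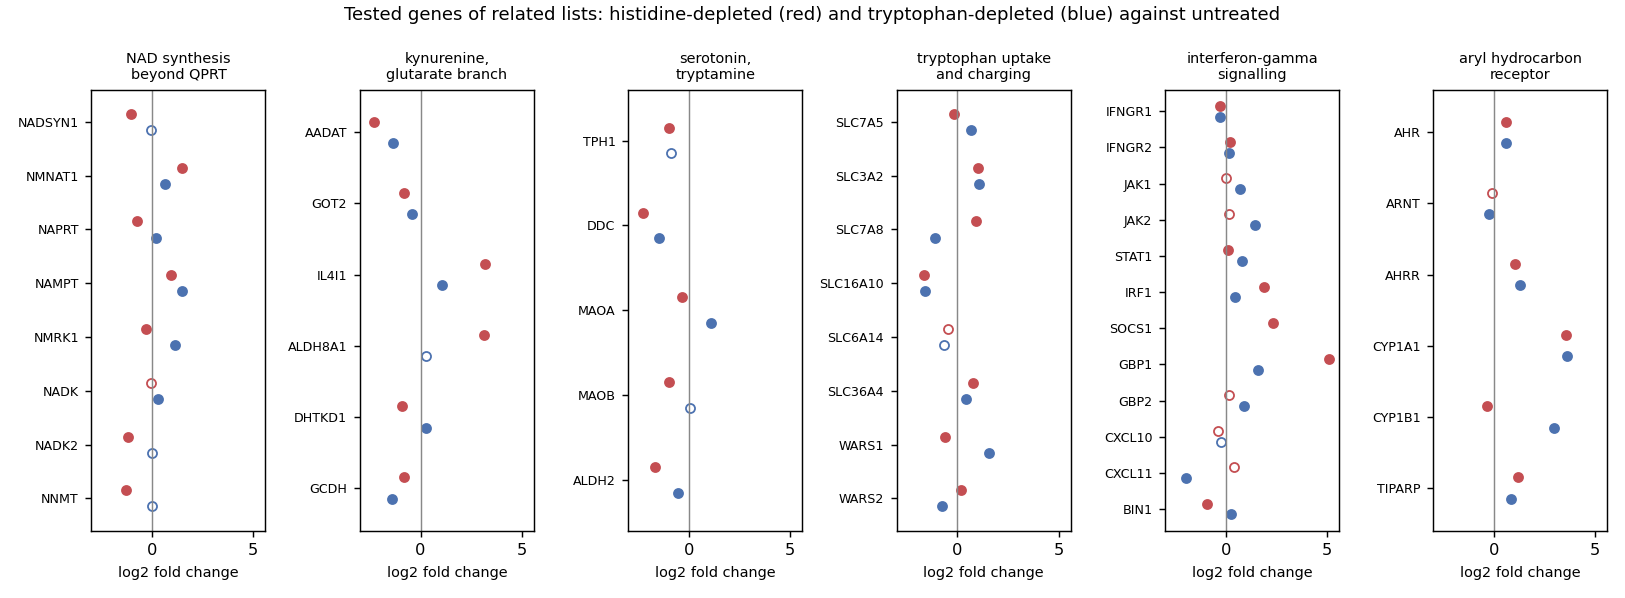
Log2 fold changes of the tested genes of the 6 related lists against untreated cells, histidine-depleted in red and tryptophan-depleted in blue (horizontal axis in log2 units, 1 gene per row; filled points passed an adjusted p of 0.05 by limma, open points did not). DDC and AADAT lie left of 0 in both depletions, GBP1 is at 5.10 without histidine and 1.60 without tryptophan, and CYP1B1 is at 2.94 without tryptophan.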

How the data were processed

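RNA of HT29 cells (3 groups, 2 libraries each) was measured by RNA-seq of polyadenylated RNA. The authors aligned the reads to GRCh38 with STAR 2.7.10a, counted exonic reads with HTSeq 2.0.5 (gencode 38) and divided the counts by DESeq2 size factors. The deposited values are these normalized counts, treated here as a signal, in a separate table for each depletion with the same untreated libraries, normalized separately. The use of molecular identifiers, strand and multiply mapped reads in counting is not given in the sources used here.

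Each value was a whole multiple of the value of 1 read in its library for 100% of entries (tolerance 0.01 reads), which gave the reads. Names, lengths, overlaps and codons came from gencode 44, where 60357 of 60676 identifiers were found.

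Each depletion was tested within its table with limma 3.58.1 in R 4.3.3 (two-sided, with a mean-variance trend). Values entered as log2(normalized count + 1), genes under a mean of 10 were left out, and p-values had Benjamini-Hochberg adjustment over 18288 (histidine) and 17960 (tryptophan) genes and a threshold of 0.05. Folds on this scale understate changes of low genes. The depletions were compared over all 6 libraries, scaled together (18264 genes). Confidence intervals are those of limma, and floors of 3 reads cover counting error only. Alternatives were edgeR 4.0.16, DESeq2 1.42.0, other pseudocounts, filters and scalings, a replicate block and each library left out. On the recovered reads edgeR called 14280, 12839 and 14240 genes in the 3 comparisons. In simulated counts for histidine depletion (200 changed among 18095 genes) limma recovered 90.0% with 5.26% false calls. Every simulated gene had the same spread beyond counting error, and far fewer genes changed than the 77.3% called in the data. These figures therefore do not give the rates for the data.

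All 10 genes were named, and from each related list up to 3 called genes per depletion with the largest change and a mean of at least 50 in the higher group, with values of some of them in the other depletion added after they had been seen. ARNT, SLC7A5, SLC16A10, TPH1, TPH2, ASMT, AANAT and INMT were named outside this rule. The genes, lists and tests were chosen with earlier results of these data known. Tables and plots were made in Python 3.11.15 with numpy 2.4.6, pandas 2.3.3 and matplotlib 3.10.9.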

Additional observations from a re-analysis of the deposited data

Results flagged for a closer look

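For 4 genes the histidine-depleted libraries differed from the tryptophan-depleted libraries by a direct test over all 6 libraries (limma with Benjamini-Hochberg adjustment). The groups also differed in base medium, and the missing amino acid and the medium cannot be told apart. AFMID differed by 1.06 on the log2 scale (limma adjusted p = 1.58e-12), higher in both histidine-depleted than in both tryptophan-depleted libraries. KYNU differed by -1.61 (limma adjusted p = 1.42e-11), KYAT3 by -1.12 (limma adjusted p = 2.66e-11) and QPRT by -1.30 (limma adjusted p = 2.12e-10), each lower in both histidine-depleted libraries. In the same test 76.7% of all genes differed.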

How the results depend on the processing

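The sign and call of AFMID, KYAT3 and QPRT after histidine depletion, of KYNU, AFMID and QPRT after tryptophan depletion and of all 4 genes between the depletions held under every alternative of pseudocount, count minimum, scaling, tool, set of libraries and gene type. A limit of 1 on the size of the log2 fold change left 5949 genes called after histidine, 3674 after tryptophan and 5794 between the depletions, and 1 of the 10 genes (KYNU) after tryptophan depletion; AFMID lost its call in both depletions and QPRT after tryptophan depletion. The KYNU difference after histidine depletion turned to -0.0058 with edgeR, -0.0029 with DESeq2, -0.0029 with all 6 libraries fitted, -0.0505 without untreated replicate 1 and -0.02 without histidine-depleted replicate 2 (range with 1 library left out -0.0505 to 0.0626), never called (adjusted p 0.138 to 0.989). KYAT3 after tryptophan depletion was called with quantile normalization only (0.15, limma adjusted p = 0.0152). Without the trend the adjusted p of the called genes was larger, up to 0.0459 (QPRT, tryptophan). With no count minimum limma also called HAAO after tryptophan depletion (adjusted p = 0.0482) and KYAT1 between the depletions (0.0427), at counts of 16 reads or fewer. Of 833 alternative values of the related genes, 799 kept call and direction and 29 lost the call, all under the fold limit except those of CYP1B1, NMRK1 and WARS2 after histidine depletion. SLC7A5, SLC16A10 and TPH1 had no alternative values. ARNT after histidine depletion, not called in the fit reported, was called with quantile normalization (-0.17, limma adjusted p = 0.0017), edgeR (-0.10, adjusted p = 0.0375) and without untreated replicate 1 (-0.12, limma adjusted p = 0.0356). The AHR difference between the depletions, never called, ranged from -0.0592 to 0.0387 with 1 library left out (0.034 without tryptophan-depleted replicate 2).

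The libraries share only replicate numbers, and the differences between replicates correlated by 0.115 (histidine and untreated), -0.00519 (tryptophan and untreated) and -0.0513 (between the depletions). With a replicate block 3, 3 and 4 of the genes were called in the 3 comparisons, and 14432, 12766 and 14069 genes in all.

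With 2 libraries per group, the spread rests on what limma borrows across genes. TDO2, IDO1, IDO2, KYAT1, KMO and HAAO were under the count minimum, which left them without a usable test.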
